A study of Mus musculus with 2 samples.

Results

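Hes5 and the Notch pathway were followed in the open chromatin of mouse brain nuclei after stroke. The members were 9 genes of 21912 counted: the ligands Dll1 and Jag1, the receptors Notch1 and Notch2, the DNA-binding factor Rbpj, and the target genes Hes5, Hes1, Hey1 and Hey2. The list was drawn up after the accessibility of these loci in these libraries had been looked at, so the levels and differences below are descriptions and carry no test. Wild-type C57BL/6J male mice, 8 to 12 weeks of age, had a filament placed in the middle cerebral artery for 1 h and then withdrawn for reperfusion (stroke), or had the filament inserted with no sustained occlusion (sham). At 48 h, nuclei from 4 pooled sham brains gave 1 library and nuclei from the ipsilateral hemispheres of 4 pooled stroke brains gave the other, without olfactory bulbs and cerebellum, by single-nucleus assay for transposase-accessible chromatin (scATAC-seq). With 1 library per condition there was no replicate, every interval below is a 95% interval of counting error only, and stroke cannot be told apart from library or from the difference between brains and hemispheres.

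Notch receptors are cut after a ligand on a neighbouring cell binds them, and the freed intracellular part enters the nucleus, joins Rbpj and turns on genes of the Hes and Hey families. These targets are repressors of the basic helix-loop-helix kind. In the nervous system the pathway is best known for keeping neural progenitors undifferentiated and for promoting glial fate, and Hes5 remains active in mature astrocytes.

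The Hes5 promoter and the elements on which the results turn are printed first, 5' to 3' on the strand of the gene, from RefSeq's GRCm38.p6 sequence (the same build as mm10). Capitals mark matches, on either strand, to the letters GTGGGAA of the RBPJ motif, TGANTCA of the AP-1 motif, TTCNNNGAA of the STAT motif and TTGCNNAA of the C/EBP motif. All 6 were chosen after their values were seen. The first sequence is the 250 bases before the Hes5 start (chr4:154960673-154960922, plus strand), the site of the locus with the most fragments in sham astrocyte-gated nuclei. The next 2 lie upstream of Hes5, between genes, at chr4:154958260-154958559 and chr4:154948349-154948648. The last 3 lie in introns and had 0 to 2 fragments in sham and 21 to 46 in stroke astrocyte-gated nuclei, 2 in Rbpj at chr5:53490703-53491002 and chr5:53543489-53543788 and 1 in Notch2 at chr3:98056907-98057206.
Hes5 promoter: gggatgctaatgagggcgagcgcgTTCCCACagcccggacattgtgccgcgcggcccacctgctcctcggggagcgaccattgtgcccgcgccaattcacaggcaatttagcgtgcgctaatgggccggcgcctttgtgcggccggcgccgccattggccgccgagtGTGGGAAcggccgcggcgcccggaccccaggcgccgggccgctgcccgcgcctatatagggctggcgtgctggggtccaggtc
Hes5 element 2.51 kb upstream: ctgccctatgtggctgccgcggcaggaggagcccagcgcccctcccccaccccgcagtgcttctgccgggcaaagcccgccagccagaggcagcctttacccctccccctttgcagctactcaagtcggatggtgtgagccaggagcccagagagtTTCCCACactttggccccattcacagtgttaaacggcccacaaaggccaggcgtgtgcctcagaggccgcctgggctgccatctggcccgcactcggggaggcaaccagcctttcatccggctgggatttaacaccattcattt
Hes5 element 12.4 kb upstream: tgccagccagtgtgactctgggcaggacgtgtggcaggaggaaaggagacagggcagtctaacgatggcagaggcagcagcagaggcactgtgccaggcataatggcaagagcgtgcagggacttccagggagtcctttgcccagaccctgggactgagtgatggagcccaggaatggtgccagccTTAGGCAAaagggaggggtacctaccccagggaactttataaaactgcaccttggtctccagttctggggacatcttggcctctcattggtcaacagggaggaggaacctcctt
Rbpj element at 24.7 kb: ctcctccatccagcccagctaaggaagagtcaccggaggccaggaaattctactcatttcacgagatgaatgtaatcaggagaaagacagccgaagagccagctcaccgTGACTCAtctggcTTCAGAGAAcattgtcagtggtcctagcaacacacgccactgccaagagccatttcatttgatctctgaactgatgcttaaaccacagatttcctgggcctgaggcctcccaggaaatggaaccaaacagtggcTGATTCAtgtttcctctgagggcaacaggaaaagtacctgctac
Rbpj element at 77.5 kb: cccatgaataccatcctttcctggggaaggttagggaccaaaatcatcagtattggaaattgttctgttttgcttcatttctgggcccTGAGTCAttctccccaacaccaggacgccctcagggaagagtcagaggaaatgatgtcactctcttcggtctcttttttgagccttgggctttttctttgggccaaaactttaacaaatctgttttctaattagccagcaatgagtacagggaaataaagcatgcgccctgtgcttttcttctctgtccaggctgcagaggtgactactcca
Notch2 element at 43.5 kb: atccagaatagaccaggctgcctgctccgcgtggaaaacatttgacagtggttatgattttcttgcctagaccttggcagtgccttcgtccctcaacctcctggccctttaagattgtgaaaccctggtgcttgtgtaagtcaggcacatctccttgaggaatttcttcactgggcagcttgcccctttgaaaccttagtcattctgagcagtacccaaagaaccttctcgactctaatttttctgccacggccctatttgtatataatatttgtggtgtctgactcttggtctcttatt
The Hes5 promoter held 2 RBPJ matches and the element 2.51 kb upstream held 1. Of 32851 RefSeq promoters of 300 bases, 6.38% held this motif, as did 7.30% of 80222 regions of 300 bases that were open in astrocyte-gated nuclei. RefSeq promoters were found for 7 of the 9 members (Hes1 and Hey1 had no entry), 9 promoters in all. The RBPJ letters were present in 2 of these, those of Hes5 and Hey2. The Rbpj element at 24.7 kb held 2 AP-1 matches and 1 STAT match, and the element at 77.5 kb held 1 AP-1 match. AP-1 letters were present in 9.17% and STAT letters in 8.42% of the open regions. The Hes5 element 12.4 kb upstream held 1 C/EBP match, a motif present in 11.1% of the regions, and the Notch2 element held none of the 4. These are matches of letters, not measured binding.

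The sham library held 6817 nuclei and the stroke library 5054 after the filter, and 91.7% and 91.8% of them entered exactly 1 of 11 classes gated on marker loci. Comparisons of sham and stroke were made in the 8 classes with at least 50 nuclei in each library. Astrocyte-gated nuclei numbered 528 in sham and 639 in stroke, 7.75% and 12.6% of the kept nuclei. Their 25 marker genes summed to 2853 CPM in sham (fragments scaled to 1000000 fragments of the same nuclei) and 2906 CPM in stroke, none was at 0, and none differed by 1.5-fold. Of 8 marker lists kept out of the gate, 6 were highest in their own class. The list for oligodendrocyte precursor cells (OPCs) was higher in oligodendrocyte-gated nuclei (150 CPM) than in OPC-gated nuclei (124 CPM), and the GABAergic list was higher in OPC-gated nuclei (642 CPM) than in GABAergic nuclei (565 CPM). Median depth in astrocyte-gated nuclei was 6565.5 fragments in sham and 7998 in stroke, with 53.2% and 49.4% of fragments in peaks. The libraries shared 42 barcodes among the kept nuclei, 1 of them astrocyte-gated in both.

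Hes5, of the 4 target genes among the members the one with the most fragments per kilobase in sham astrocyte-gated nuclei, was less accessible there after stroke. The gene lies on chromosome 4 (chr4:154960923-154962371, plus strand), and fragments were counted over the gene and 2 kb upstream, a window of 3.449 kb whose end overlaps the upstream part of the Pank4 window. In astrocyte-gated nuclei Hes5 had 301 fragments in sham, 62.5 CPM (55.6 to 69.9), and 159 in stroke, 27.3 CPM (23.2 to 31.8). The intervals did not overlap, and the level was 2.29-fold lower in stroke, a log2 ratio of -1.19 (-1.48 to -0.91). Over all 17643 genes with at least 20 fragments in these nuclei the median log2 ratio was -0.06, and 5.65% of genes were 1.5-fold lower and 7.03% 1.5-fold higher in stroke. Hes5 and Dll1 were the 2 of 9 members that were 1.5-fold lower, and none was 1.5-fold higher.

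**Figure D1:**
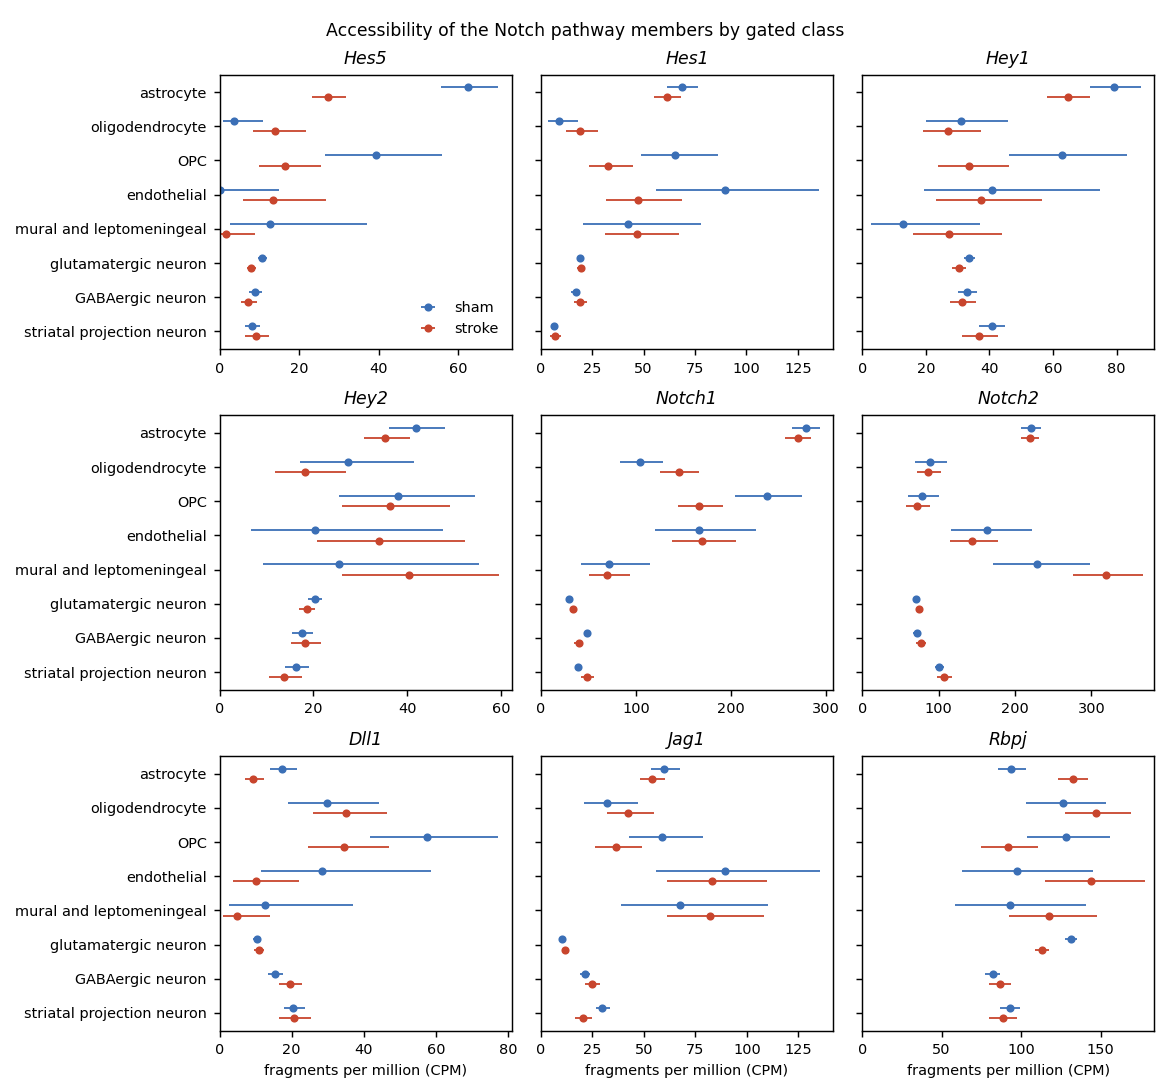
CPM over each member's window (horizontal axis, from 0) in the 8 classes with at least 50 nuclei in each library, sham in blue and stroke in red; points are the level in 1 library and bars its 95% counting interval. Hes5 in astrocyte-gated nuclei is at 62.5 CPM in sham and 27.3 CPM in stroke, while the sham and stroke intervals of both receptors overlap there.

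Of the classes compared, Hes5 was highest in astrocyte-gated nuclei in both libraries and second in OPC-gated nuclei, at 39.2 CPM in sham (30 fragments) and 16.4 CPM in stroke (19 fragments). In each library the counting intervals of these 2 classes overlapped. The OPC log2 ratio was -1.23 (-2.17 to -0.38), in a class where 23.3% of all genes were 1.5-fold lower. Neurons were low in both libraries. Glutamatergic neurons had 10.7 CPM in sham and 7.91 CPM in stroke, a log2 ratio of -0.44 (-0.70 to -0.18), and -0.23 when scaled to promoter fragments. GABAergic neurons had 8.99 and 7.15 CPM (-0.32, -0.82 to 0.14), and striatal projection neurons 8.13 and 9.09 CPM (0.18, -0.42 to 0.73). Endothelial-gated nuclei had 0 fragments in sham and 8 in stroke, and mural and leptomeningeal nuclei 3 and 1. In oligodendrocyte-gated nuclei Hes5 went the other way, from 3 fragments (3.72 CPM) in sham to 19 fragments (13.9 CPM) in stroke, with an interval of 0.13 to 4.30 on the log2 scale, and the 19 stroke fragments came from 12 nuclei. Stroke myeloid-gated nuclei, 361 in number, had 9.54 CPM, in the range of the neurons. Over all kept nuclei Hes5 was at 13.7 CPM in sham and 10.5 CPM in stroke.

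The share of nuclei with a Hes5 fragment showed the same order, but rests on the fragments already counted for Hes5 and is no separate result. Its intervals take the nuclei of 1 pooled library as units and cover counting error only. With every nucleus thinned to 2000 fragments, 58 of 393 sham astrocyte-gated nuclei, 14.8% (11.4 to 18.7), and 33 of 583 in stroke, 5.66% (3.93 to 7.86), kept a Hes5 fragment. Thinning left out 135 sham and 56 stroke nuclei that were shallower. Without it the shares were 35.0% and 18.6%. Glutamatergic neurons, in which Hes5 is not a marker, gave 2.02% in sham and 1.89% in stroke after thinning, from median depths of 12378 and 12756 fragments, against 9701 and 8573 in the astrocyte-gated nuclei. Both astrocyte shares were above that level. OPC-gated nuclei gave 6 of 99 in sham (6.06%, 2.26 to 12.7) and 6 of 125 in stroke (4.80%, 1.78 to 10.2), with overlapping intervals. In oligodendrocyte-gated nuclei 1 of 67 in sham and 2 of 162 in stroke kept a fragment, 1.49% and 1.23%, so the higher level there did not appear in the thinned share.

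The difference was not uniform along the locus. At the promoter, counted over 300 bases that end 50 bases inside the gene and also lie in an exon of Gm20421, 195 fragments in 151 sham astrocyte-gated nuclei and 90 fragments in 70 stroke nuclei had a cut site, 40.5 against 15.4 CPM, a log2 ratio of -1.38 (-1.77 to -1.02). The element 2.51 kb upstream, outside the counted window, had 101 fragments in sham and 57 in stroke (-1.09, -1.60 to -0.62). The element 12.4 kb upstream gave 16.8 and 8.91 CPM (-0.91, -1.45 to -0.40). A further element 16.5 kb upstream (chr4:154944308-154944607, between genes) did not follow: it had 71 fragments in sham and 93 in stroke, 14.7 and 15.9 CPM (0.11, -0.35 to 0.58). These elements were picked after their values were seen. Of 19 bins of 500 bases with at least 20 fragments in the Hes5 window or within 20 kb of it, 8 were 2-fold lower in stroke and 0 were 2-fold higher. Of the lower bins, those at -2.172, -0.672, -0.172 and 0.328 kb from the start lie in the window. They hold fragments already counted for Hes5, which was chosen with its values known, and are no separate result. Among 80222 such bins of the genome, 4.48% were 2-fold lower and 11.3% 2-fold higher. Neighbouring bins share fragments and are not independent.

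**Figure D2:**
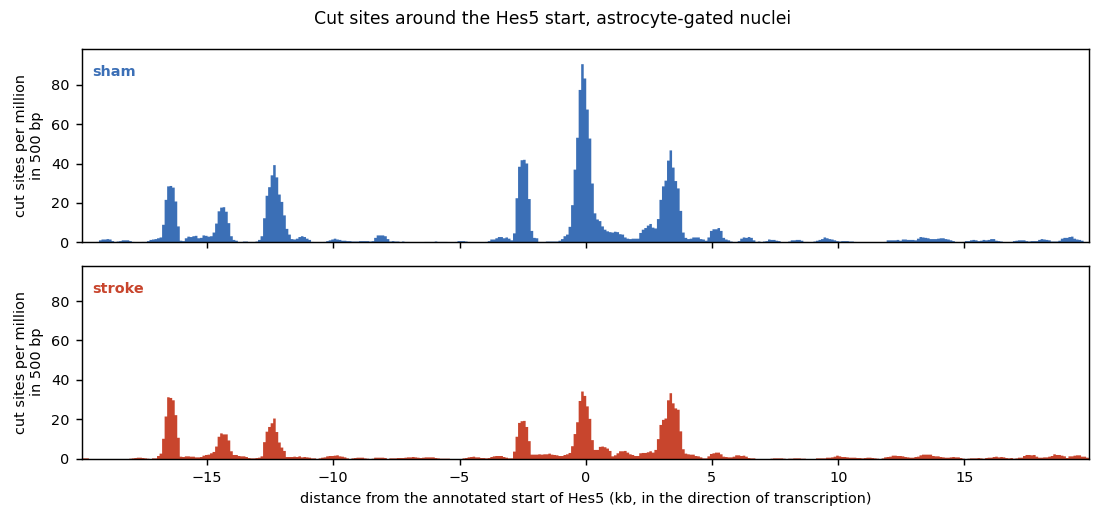
Cut sites in sliding 500 bases per 1000000 fragments of the same nuclei (vertical axes, same scale), by kb from the annotated Hes5 start. Panels show astrocyte-gated nuclei of the sham (top) and stroke (bottom) library. Both ends of a fragment were counted here, so heights are not the CPM of fragments given in the text. The peaks at the start, 2.51 kb and 12.4 kb upstream are lower in stroke, and the peak 16.5 kb upstream is of like height in both. Past the start, the bin at 3.328 kb had 129 fragments in sham and 114 in stroke, short of 2-fold (log2 ratio -0.45, -0.83 to -0.08).

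By class, the elements were not alike. The element 2.51 kb upstream was lower in stroke in GABAergic neurons too, with 16 fragments in sham and 0 in stroke (upper limit of the log2 ratio -1.01). It had 10 and 6 fragments in OPC-gated nuclei (-1.25, -3.08 to 0.27). In glutamatergic neurons it had 44 and 29 (0.16, -0.58 to 0.85). Glutamatergic neurons had 1.95 CPM in sham at the promoter and 0.287 CPM at the element 12.4 kb upstream, against 40.5 and 16.8 CPM in astrocyte-gated nuclei. At the element 16.5 kb upstream the same neurons had 6.88 CPM in sham and 5.11 CPM in stroke. In OPC-gated nuclei the element 16.5 kb upstream had 18 fragments in sham and 7 in stroke (-1.85, -3.46 to -0.63), so there it was lower too. In oligodendrocyte-gated nuclei, the promoter had 2 fragments in sham and 6 in stroke, and the element 16.5 kb upstream 6 and 20.

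Among the 6 other protein-coding genes whose windows lie within 100 kb of the Hes5 start, none differed by 1.5-fold in astrocyte-gated nuclei. Plch2, a phospholipase C gene, was nearest to that limit with 100 CPM in sham and 67.0 CPM in stroke (log2 ratio -0.58, -0.78 to -0.39). Pank4, whose start lies just beyond Hes5, had 60.6 and 43.9 CPM (-0.46, -0.71 to -0.22), and Ttc34 had 50.2 and 37.4 CPM (-0.43, -0.70 to -0.16). Mmel1 had 30.1 and 35.1 CPM (0.22, -0.09 to 0.54), and the intervals of Fam213b (-0.15) and Tnfrsf14 (-0.36) included 0. Hes5 had the lowest ratio of the 7 genes of this stretch, and was chosen with its values known. This rank is therefore a description, and the intervals of Plch2, Pank4 and Ttc34 also lay below 0.

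The genes whose levels over the 17 groups of class and library were most like Hes5 by Pearson correlation of log2(CPM + 1) were Rlbp1, a retinaldehyde-binding protein gene of glia (0.91), Dnaic1 (0.87), Agr3 (0.85), Tmem200c (0.85) and Ilkap (0.85). In astrocyte-gated nuclei their log2 ratios of stroke over sham were 0.44, -0.24, -0.48, -0.37 and -0.22. None of the 5 was as much lower as Hes5. Among the members the nearest was Hey1 (0.42). The groups share libraries and differ in depth.

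The other targets differed less in astrocyte-gated nuclei. Hes1, a second Hes repressor (chr16:30064384-30067796), had 68.5 CPM in sham and 61.4 CPM in stroke, with a log2 ratio of -0.16 (-0.38 to 0.06). Hey1 (chr3:8663359-8667256) had 79.3 and 64.6 CPM (-0.29, -0.50 to -0.09), and Hey2 (chr10:30832359-30842801) 41.7 and 35.3 CPM (-0.24, -0.53 to 0.05). All 3 were lower in stroke, and the interval of Hey1 excluded 0. In the promoter window the ratios were -0.15 (-0.48 to 0.19) for Hes1, -0.35 (-0.61 to -0.10) for Hey1 and -0.36 (-0.66 to -0.05) for Hey2. At the RefSeq start of Hey2 there were 150 fragments in sham and 130 in stroke (-0.48, -0.83 to -0.13). Scaled to promoter fragments, the ratios were -0.01 for Hes1, -0.15 (-0.36 to 0.06) for Hey1 and -0.10 for Hey2, and with the gate on each nucleus alone Hey2 was at 0.02 and Hey1 at -0.21 (-0.43 to 0.02). Per kilobase of window, Hes5 came first of the members in sham astrocyte-gated nuclei at 18.1 CPM per kb, before Hey1 at 13.4 and Hes1 at 12.7 CPM per kb. In stroke the order was Hes1 at 11.3, Hey1 at 10.96 and Hes5 at 7.90 CPM per kb. Within Hey1, a bin 1.505 kb inside the gene had 28 fragments in sham and 11 in stroke (-1.55, -2.78 to -0.57). A bin 3.505 kb inside had 3 and 18 (1.97, 0.53 to 4.72). The bin at its start had 187 and 188, or 38.8 and 32.2 CPM (-0.27, -0.57 to 0.03). The bin 0.495 kb before the start had 83 and 57 (-0.81, -1.33 to -0.31). No bin of Hes1, of 13, and none of Hey2, of 3, differed by 2-fold.

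**Figure D3:**
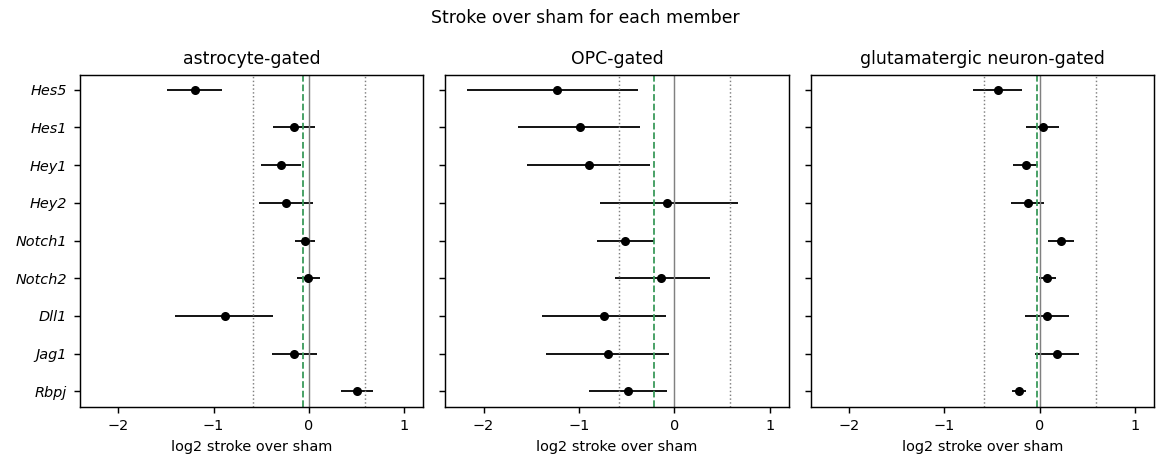
Log2 ratio of stroke over sham (horizontal axis) for each member in 3 classes; points are the ratio of the 2 libraries and bars its 95% counting interval, dotted lines mark 1.5-fold and the dashed green line the median of all genes in that class. In astrocyte-gated nuclei Hes5 (-1.19) and Dll1 (-0.88) lie past the lower line, and Rbpj (0.50) is the member farthest to the right.

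Outside astrocyte-gated nuclei, Hes1 was above its level in neurons (at most 19.4 CPM) in OPC-gated, endothelial-gated and mural and leptomeningeal nuclei, but not in oligodendrocyte-gated nuclei (8.69 CPM in sham and 18.97 CPM in stroke). Of the classes compared, it was highest in endothelial-gated nuclei in sham, at 89.5 CPM (56.1 to 136), followed by astrocyte-gated nuclei, with overlapping intervals. With alternate markers or the gate on each nucleus alone, astrocyte-gated nuclei came first. In stroke endothelial-gated nuclei it had 47.4 CPM, a log2 ratio of -0.93 (-1.77 to -0.04) on 22 and 28 fragments, where 21.5% of all genes were 1.5-fold lower. Hey1 was flatter, at 33.7 CPM in sham glutamatergic neurons and 40.7 CPM in striatal projection neurons. Hey2 stayed between 13.7 and 41.7 CPM in every class and library compared.

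The receptors differed little in astrocyte-gated nuclei when counted over the whole gene. Notch1 (chr2:26457903-26516663) had 1344 fragments in sham and 1578 in stroke, 279 and 270 CPM, a log2 ratio of -0.04 (-0.15 to 0.06). Notch2 (chr3:98013527-98150361) had 1062 and 1280 fragments, 220 and 219 CPM (-0.01, -0.12 to 0.11). When levels were scaled to fragments in promoters, which moved the median of all genes by 0.14, these ratios became 0.10 for Notch1 and 0.14 for Notch2. That shift is the same for every gene of the class, so no direction is given for ratios this close to 0. Centred on the median of all genes, they were 0.02 and 0.05. The promoter window, placed at the annotated start, gave -0.43 (-1.47 to 0.59) for Notch1 and -0.28 (-0.61 to 0.06) for Notch2. The gate on each nucleus alone gave 0.14 (0.03 to 0.26) and 0.13 (-0.004 to 0.26). Of the classes compared, Notch1 was highest in astrocyte-gated nuclei in both libraries, with an interval that overlapped that of OPC-gated nuclei in sham, and lowest in glutamatergic neurons (29.3 CPM in sham and 34.2 CPM in stroke). In the promoter window of the annotated start it was not highest in astrocyte-gated nuclei in either library. In these nuclei the bin 0.412 kb inside that start had 9 fragments in sham and 12 in stroke. RefSeq places the Notch1 start 12.8 kb inside the annotated gene, with 87 and 81 fragments there (-0.38, -0.83 to 0.07). Classes were not compared at the RefSeq start, so the promoter window does not rank them there. Over all kept nuclei Notch1 was at 56.1 CPM in sham and 81.8 CPM in stroke. Astrocyte-gated nuclei were 7.75% and 12.6% of the kept nuclei, and myeloid-gated nuclei, at 134 and 136 CPM of Notch1, were 0.660% and 7.14%. The part of these shares in the difference was not tested. Of the classes compared, Notch2 was highest in mural and leptomeningeal nuclei, at 229 CPM in sham and 319 CPM in stroke (0.46, 0.04 to 0.94), with an interval that overlapped that of astrocyte-gated nuclei in sham but not in stroke. With alternate markers, the promoter window or the gate on each nucleus alone, astrocyte-gated nuclei were highest in sham. With the gate on each nucleus alone they were highest in stroke too. The 49 sham choroid plexus nuclei, too few in stroke to compare, had 425 CPM (360.3 to 497).

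Along Notch1, 7 of 47 bins were 2-fold higher and 1 was 2-fold lower in stroke. An intronic element 23.0 kb inside the gene (chr2:26493537-26493836) had 12 fragments in sham and 46 in stroke astrocyte-gated nuclei, 2.49 and 7.88 CPM (1.58, 0.72 to 2.72). Striatal projection neurons had 6.15 and 9.31 CPM at this site (0.61, -0.01 to 1.19), so it was open in sham outside astrocyte-gated nuclei. The site was also higher in stroke in glutamatergic (1.46 and 2.45 CPM, 0.75, 0.19 to 1.31) and GABAergic neurons (0.984 and 2.43 CPM, 1.28, 0.21 to 2.42). OPC-gated nuclei had 2 fragments in each library, and myeloid-gated nuclei 4.33 and 2.60 CPM on 2 and 15 fragments. Along Notch2, 3 of 32 bins were 2-fold higher and 2 were 2-fold lower. The Notch1 and Notch2 elements were picked for their difference. The Notch2 element printed above had 2 fragments in sham and 27 in stroke, in 27 different nuclei, 0.415 and 4.63 CPM (2.95, 1.49 to 6.60). Against the 11.3% of genome bins that were 2-fold higher, 7 of 47 and 3 of 32 bins are near the background. At the start of Notch2 in RefSeq both libraries had 128 fragments, 26.6 CPM in sham and 21.9 CPM in stroke.

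The ligands differed from each other. Dll1, a Delta-type ligand (chr17:15367354-15376872), was low in astrocyte-gated nuclei, with 84 fragments in sham and 55 in stroke, 17.4 and 9.43 CPM (log2 ratio -0.88, -1.40 to -0.38). With the gate on each nucleus alone the ratio was -0.48 (-1.07 to 0.09), short of 1.5-fold. A bin 1.121 kb inside the gene, the 1 of 5 Dll1 bins that was 2-fold lower, held 26 fragments in sham and 8 in stroke. The 2 kb before and 500 bases after the annotated start held 21 and 25 fragments (log2 ratio -0.03, -0.92 to 0.89). That interval includes the ratio of the whole gene, so the start cannot be told apart from the rest of the gene. RefSeq places a Dll1 start close to the lower bin, with 27 and 13 fragments in its 300 bases (-1.28, -2.41 to -0.33). Another RefSeq start, 0.06 kb before the annotated start, had 3 and 2 fragments. Of the classes compared, Dll1 was highest in OPC-gated nuclei in sham (57.5 CPM, 44 fragments), and there too it was lower in stroke (34.5 CPM, 40 fragments). Counted over its promoter window alone, however, Dll1 was 1.5-fold higher in stroke OPC-gated nuclei. In GABAergic neurons it was slightly higher in stroke, at 19.4 against 15.5 CPM (0.33, 0.01 to 0.63).

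Jag1, a Jagged-type ligand (chr2:137081456-137116644), was, of the classes compared, highest in vascular classes: 89.5 CPM in sham and 83.0 CPM in stroke endothelial-gated nuclei, and 67.8 and 82.2 CPM in mural and leptomeningeal nuclei. In sham, the promoter window and the gate on each nucleus alone put astrocyte-gated nuclei highest instead. The lowest levels, 10.3 and 11.7 CPM, were in glutamatergic neurons. Astrocyte-gated nuclei had 60.0 and 53.8 CPM (-0.16, -0.39 to 0.08). At the RefSeq start of Jag1 these nuclei had 33 fragments in sham and 20 in stroke, 6.85 and 3.43 CPM (-0.97, -1.88 to -0.15). None of its 10 bins differed by 2-fold. In striatal projection neurons Jag1 was at 29.9 CPM in sham and 20.4 CPM in stroke (-0.54, -0.91 to -0.21).

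Rbpj, through which the canonical pathway reaches DNA, was the member whose level was higher in stroke astrocyte-gated nuclei. The annotated gene spans chr5:53466152-53657362, a window of 193.2 kb. It had 452 fragments in sham, 93.8 CPM (85.4 to 103), and 774 in stroke, 133 CPM (123 to 142), a log2 ratio of 0.50 (0.33 to 0.67). This 1.41-fold difference was under the 1.5-fold limit, and was past it (0.64) when levels were scaled to promoter fragments. OPC-gated nuclei had 128 CPM in sham and 91.5 CPM in stroke (-0.49, -0.90 to -0.07), and glutamatergic neurons 131 and 113 CPM (-0.22, -0.29 to -0.15). Scaled to promoter fragments, the last 2 ratios were -0.11 and -0.01. Over the classes compared, sham levels of Rbpj ran from 82.1 CPM in GABAergic neurons to 131 CPM in glutamatergic neurons, and the 45 sham myeloid-gated nuclei had 179.6 CPM (143 to 223).

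Within Rbpj, 2 elements had no fragment in sham astrocyte-gated nuclei, and were picked for it. The element at 24.7 kb had 0 fragments in 528 sham nuclei and 46 fragments in 36 of 639 stroke nuclei, or 7.88 CPM (5.77 to 10.5). The stroke level was 12.7 times the 0.623 CPM that 3 fragments, taken as the floor for a count of 0, would give in the sham nuclei, and the lower limit of the log2 ratio was 3.31. The element at 77.5 kb had 0 fragments in sham and 21 in 20 stroke nuclei, 5.78 times the same floor, with a lower limit of the log2 ratio of 2.105. In neurons the first element had 19 fragments in sham and 8 in stroke glutamatergic neurons (0.495 and 0.350 CPM), and 0 in both libraries in striatal projection neurons. Endothelial-gated nuclei had 0 fragments in sham and 4 in stroke, and mural and leptomeningeal nuclei also 0 and 4. Those 4 fragments made 6.77 CPM (1.85 to 17.3) and 6.45 CPM (1.76 to 16.5), near the astrocyte level, and the upper limits in sham were 15.01 and 15.6 CPM. Myeloid-gated nuclei had 3 fragments in sham (6.49 CPM) and 7 in stroke (1.21 CPM). By this choice their difference is a description. The other 3 gates tried share most of their nuclei with this one.

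RefSeq places the Rbpj starts 124.2 kb and 124.3 kb into the annotated gene. In their 300 bases the libraries had 91 and 161 fragments at the first, 18.9 and 27.6 CPM (0.54, 0.17 to 0.93), and 119 and 171 at the second (0.24, -0.10 to 0.60). These stretches overlap, so their counts are not independent. The promoter window of the annotated start had 3 fragments in sham and 1 in stroke.

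**Figure D4:**
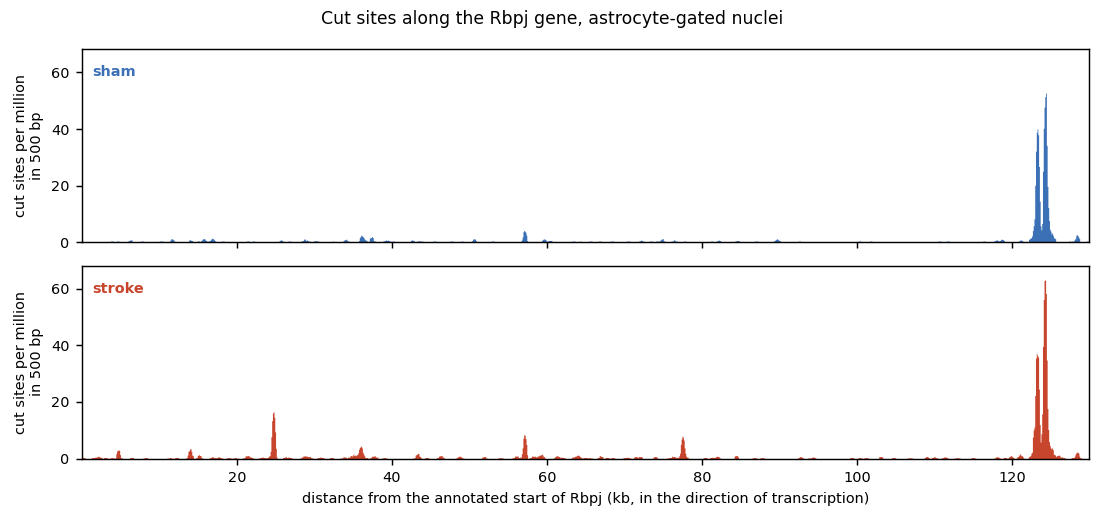
Cut sites in sliding 500 bases per 1000000 fragments of the same nuclei (vertical axes, same scale), by kb from the annotated Rbpj start. Panels show astrocyte-gated nuclei of the sham (top) and stroke (bottom) library. Both ends of a fragment were counted here, so heights are not the CPM of fragments given in the text. The tall pair of peaks near the RefSeq starts at 124.2 kb is present in both, and the peaks at 24.7 kb and 77.5 kb are seen in the stroke library, with 0 sham fragments at both elements.

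In OPC-gated nuclei 5 of the 9 members were 1.5-fold lower in stroke (Hes5, Hes1, Hey1, Dll1 and Jag1) and 0 were 1.5-fold higher, where 23.3% of all genes were 1.5-fold lower and 9.49% higher. Their log2 ratios were -1.23, -0.99, -0.89, -0.73 and -0.70, beside a median of -0.21 for all genes in this class. Scaling to promoter fragments moved that median by 0.37 and left Hes5 (-0.86) and Hes1 (-0.61) past 1.5-fold. With the gate on each nucleus alone, Hes5 was the 1 member still 1.5-fold lower in this class, and Jag1 was 1.5-fold higher. In promoter windows Hes5, Hes1, Hey1 and Notch2 were 1.5-fold lower there, Jag1 was not, and Dll1 was 1.5-fold higher. The OPC gate rests on 118 sham and 143 stroke nuclei. In oligodendrocyte-gated nuclei Hes5 and Hes1 were 1.5-fold higher, where 8.75% of genes were, and Hey2 was 1.5-fold lower, where 15.4% were, on 22 to 47 fragments over both libraries. The intervals of Hes1 (-0.12 to 2.58) and Hey2 (-1.47 to 0.31) included 0. Hes5 was not called in the promoter window, Hes1 not with the gate on each nucleus alone, and Hey2 not after centring, promoter scaling or that gate. Hey1 was 1.5-fold higher in mural and leptomeningeal nuclei, on 3 and 17 fragments with an interval of -0.68 to 3.52, where 16.7% of genes were, and this call held only under centring and promoter scaling of the alternatives tried. In the same nuclei 0 of the 7 members with at least 20 fragments there were 1.5-fold lower, where 20.4% were. In endothelial-gated nuclei Hes1 was the 1 of 7 members with at least 20 fragments that was 1.5-fold lower, and 0 were 1.5-fold higher. There 21.5% of all genes were 1.5-fold lower and 15.6% higher. That Hes1 call was lost with alternate markers, in the promoter window and with the gate on each nucleus alone. None of the 9 members differed by 1.5-fold in glutamatergic (6.45% of genes higher and 0.862% lower), GABAergic (4.64% and 2.48%) or striatal projection neurons (7.35% and 4.03%). Under alternatives some did: Jag1 was lower in striatal projection neurons with alternate markers and in the promoter window, and Hes1 was higher there in the promoter window and with the gate on each nucleus alone. That gate also gave Dll1 higher in glutamatergic and Hey2 lower in GABAergic neurons.

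Of 63 further genes of the pathway, all compared in astrocyte-gated nuclei, 2 were 1.5-fold higher in stroke (3.17%, against 7.03% of all genes) and 4 were 1.5-fold lower (6.35%, against 5.65%). Their median log2 ratio was -0.13, beside -0.06 for all genes. Scaled to promoter fragments, which raised the median of all genes by 0.14, 5 were higher and 2 lower. The 2 higher genes were the ligands Dll3, at 5.60 CPM in sham and 10.6 CPM in stroke (0.89, 0.25 to 1.63), and Dll4, at 3.11 and 5.66 CPM (0.81, -0.06 to 1.85), both on few fragments. None of the other 5 ligands passed, among them Jag2 (-0.25) and Dner (-0.08).

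Of 6 further genes listed as targets, 2 were 1.5-fold lower (33.3%, against 5.65% of all genes) and 0 were 1.5-fold higher (against 7.03%). Whether each of the 6 responds to Notch was not tested. Heyl, the remaining Hey family repressor, had 71.8 CPM in sham and 42.0 CPM in stroke (-0.77, -1.02 to -0.53). Hes2 had 22 and 13 fragments, with an interval that included 0 (-0.99, -2.15 to 0.02). Nrarp, a target that feeds back on the pathway, had 68.3 and 50.1 CPM (-0.45, -0.68 to -0.22). Hes7 was on the other side at 0.32 (0.06 to 0.58).

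The remaining roles held few differences. The 9 genes of the proteases that cut Notch had none past 1.5-fold and a median of -0.20, with Adam17, a sheddase, at -0.51. The receptors Notch3 (0.08) and Notch4 (-0.23) and the 5 modifiers had none. Of 8 nuclear coactivators none passed, and Kat2b, an acetyltransferase, was highest at 0.50 (0.27 to 0.73). Tle2, of the Groucho corepressors, was the 1 of 13 corepressors past the limit (7.69%), at 27.0 and 17.0 CPM (-0.67, -1.06 to -0.28). Neurl1b, a ubiquitin ligase that acts on ligands, was the 1 of 13 regulators of trafficking (7.69%), at 44.8 and 27.8 CPM (-0.69, -0.99 to -0.39). Both shares are near the 5.65% of all genes that were 1.5-fold lower. Scaled to promoter fragments, Tle2 and Neurl1b were short of 1.5-fold, and Kat2b, Mfng (a modifier) and Dtx4 (a regulator of trafficking) were past it on the higher side.

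**Figure D5:**
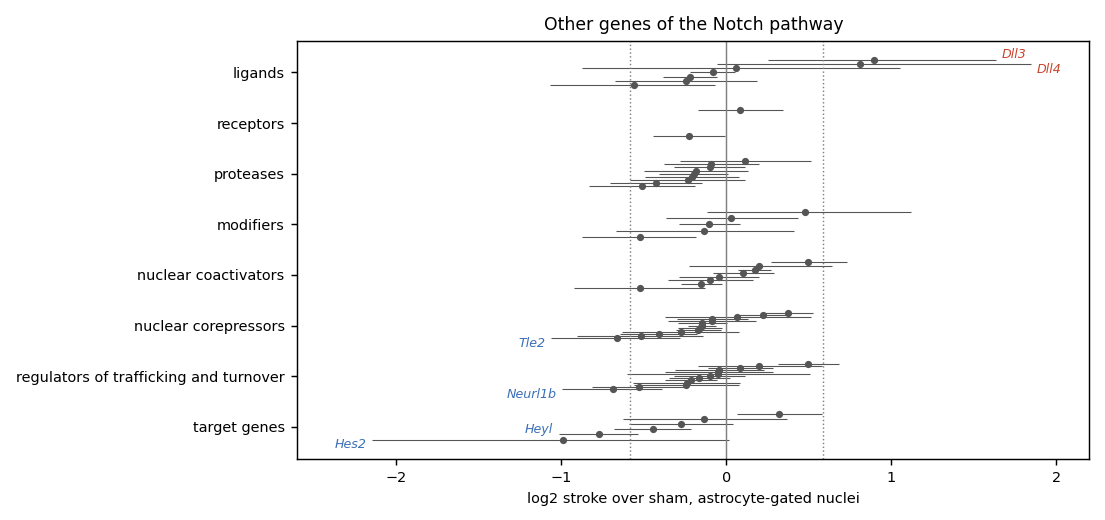
Log2 ratio of stroke over sham (horizontal axis) in astrocyte-gated nuclei for the 63 further pathway genes, grouped by role; points are the ratio of the 2 libraries, bars its 95% counting interval, and dotted lines mark 1.5-fold. Named genes lie past 1.5-fold: Dll3 and Dll4 on the right, and Hes2, Heyl, Neurl1b and Tle2 on the left.

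Other loci in the same astrocyte-gated nuclei, listed after the data had been seen, stood beside these values. Gfap, the intermediate filament gene of reactive astrocytes, had 60.6 CPM in sham and 141 CPM in stroke (1.21, 1.02 to 1.41), Vim 14.5 and 58.3 CPM, and Serpina3n 4.98 and 23.0 CPM. Emx2, a transcription factor of the telencephalon, had 30.9 and 37.2 CPM (0.26, -0.04 to 0.58), and Lhx2 79.1 and 81.1 CPM. Of 4 genes of the midbrain and hindbrain, Irx5 had 35.5 and 32.2 CPM (-0.14), and Irx1 (0.49), Irx2 (-0.05) and Irx3 (0.13) were under 7 CPM, all with intervals that included 0. The summed markers of glutamatergic neurons were 539 CPM in sham and 444 CPM in stroke astrocyte-gated nuclei, with 3 of 18 genes 1.5-fold lower, where 5.65% of all genes were lower and 7.03% higher. Those of striatal projection neurons were 684 and 602 CPM (4 of 17 lower), and those of GABAergic neurons 419.8 and 403 CPM (2 of 19 higher and 4 lower). Those of myeloid cells were 828 and 905 CPM (2 of 31 higher and 6 lower), and those of endothelial cells 453 and 518 CPM (5 of 24 higher). No marker of the 11 lists of the gate was at 0. The part of these in the Hes5 and Rbpj differences was not tested.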

How the data were processed

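Each library was 1 pool of nuclei sequenced by scATAC-seq. The authors aligned the reads to mm10 and called cells with Cell Ranger ATAC 2.1.0, per the file headers. The deposited fragment files give counts of read pairs for each deduplicated fragment (76959104 fragments in sham and 96465679 in stroke), and the deposited barcode tables give fragment counts per barcode. Duplicates had been collapsed by barcode and position, and the assay has no molecular identifiers. Intervals and floors cover counting error only.

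Called barcodes (6979 in sham, 8740 in stroke) were kept where over 20% of fragments lay in peaks. Fragments overlapping each gene and its 2 kb upstream (GENCODE M21 models, GRCm38) were counted once per gene and divided by the fragments of the nuclei summed (CPM). No fragment ended beyond a chromosome of the reference. Classes came from 211 marker entries: fragments of a nucleus and its 14 nearest neighbours in 30 latent components (computed without the windows of the members or the pathway list) were compared with the rate in nuclei called as other classes by a Poisson limit of 1e-04, a 1.5-fold excess and a lead of 2 in -log10 p over the next class. Nuclei passing for several classes or none were left out, and no doublet caller was run. The markers were set from the labels and the study, and the scoring was chosen after marker values, not member values, had been seen.

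Ratios are (stroke + 1) over (sham + 1) fragments, each per total, with exact conditional binomial intervals. CPM intervals are exact Poisson and shares exact Clopper-Pearson. A gene was called at 1.5-fold with at least 20 fragments over both libraries. No p-value was computed, as each condition had 1 library. The pathway genes named were up to 8 in each direction past 1.5-fold. Genes like Hes5 were the 5 of highest correlation, and neighbours were all protein-coding genes within 100 kb. Other pathway genes, the elements and the telencephalon, midbrain and reactive genes were named after their values were seen. The members and lists were chosen with earlier results of these data known. Tle5 was read under its older symbol Aes, listed by RefSeq as a synonym. Counting and ratios were tested on simulated data. Python 3.11.15, numpy 2.4.6, scipy 1.17.1, pandas 2.3.3 and scikit-learn 1.9.0 were used.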

Additional observations from a re-analysis of the deposited data

Results flagged for a closer look

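Several members had log2 ratios of stroke over sham of opposite sign in 2 classes, each with a counting interval that excluded 0. The difference between classes was not tested, and with 1 library per condition the intervals cover counting error only. For Hes5 the ratio was 1.56 in oligodendrocyte-gated nuclei, on 3 and 19 fragments, against -1.19 in astrocyte-gated, -1.23 in OPC-gated and -0.44 in glutamatergic nuclei. Rbpj was at 0.50 in astrocyte-gated nuclei, against -0.49 in OPC-gated and -0.22 in glutamatergic nuclei. Dll1 was at 0.33 in GABAergic nuclei, against -0.88 in astrocyte-gated and -0.73 in OPC-gated nuclei. Notch1 was at 0.47 in oligodendrocyte-gated, 0.22 in glutamatergic and 0.30 in striatal projection nuclei, against -0.52 in OPC-gated and -0.28 in GABAergic nuclei. These signs depend in part on the scaling. Scaled to promoter fragments, Rbpj was at -0.11 in OPC-gated and -0.01 in glutamatergic nuclei, Notch1 at -0.14 and Dll1 at -0.36 in OPC-gated nuclei and Hes5 at -0.23 in glutamatergic nuclei, and the intervals, shifted alike, then included 0.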

How the results depend on the processing

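The Hes5 ratio in astrocyte-gated nuclei stayed past 1.5-fold lower under all 11 alternatives, with log2 ratios from -1.30 to -1.05. These were other markers, a stricter gate, a promoter window, cut sites, the study's limits on fragments in peaks, promoter scaling, centring, 5 fragments added, thinning and, chosen after seeing the data, a gate on the nucleus alone and nuclei of at least 5000 fragments. Dll1 was below 0 under all 8 of its alternatives, at -0.03 in the promoter window and -0.48 with the gate on the nucleus alone, neither past 1.5-fold. Rbpj was above 0 under 7 of 8 and reversed to -1.28 in the promoter window of the annotated start, on 3 and 1 fragments. Over the 8 classes, 3 pairs of member and class were 1.5-fold higher and 9 lower. Centring gave 6 higher and 6 lower, 5 fragments added 2 higher and 9 lower, promoter scaling 9 higher and 5 lower, and the gate on the nucleus alone 11 higher and 3 lower. The 3 were Hes5 in astrocyte-gated and OPC-gated nuclei and Hey2 in GABAergic nuclei, so 2 of the 9 pairs kept their call. That gate also put 7 members in place of 4 highest in sham astrocyte-gated nuclei, and alternate markers put 6. Of the pathway list, 2 genes were higher and 4 lower. The gate on the nucleus alone gave 1 higher, the promoter window 4 higher, and promoter scaling 5 higher and 2 lower. Promoter scaling raised the median of all genes in each class, by 0.04 in GABAergic to 0.37 in OPC-gated nuclei. The shares of all genes past 1.5-fold under these alternatives are not given here. These shifts in counts therefore cannot be read as particular to the members or the pathway list. Without thinning, 35.0% of sham and 18.6% of stroke astrocyte-gated nuclei had a Hes5 fragment. The causes of these shifts were not tested. No paired analysis was possible because sham and stroke were single pools with no replicate numbers. Classes of under 150 nuclei per library gave 0 to 50 fragments at Hes5 and Hes1 in each.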

Other observations

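Barcodes called as cells but left out for having at most 20% of fragments in peaks numbered 162 in sham and 3686 in stroke. In the stroke barcodes left out, Hes5 was at 2.43 CPM, Hes1 at 5.79 CPM and Dll1 at 5.54 CPM, each below its level in any class compared in stroke apart from Hes5 and Dll1 in mural and leptomeningeal nuclei. Rbpj in the same barcodes was at 94.8 CPM, within the range of the kept classes.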
